A study of Mus musculus with 3 samples.

Results

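A set of 10 mouse genes for secreted growth factors and ligands of the TGF-β family was followed in RAW264.7 cells, a mouse macrophage cell line: Vegfa, Pgf and Pdgfb of the VEGF and PDGF family, Hbegf, Areg and Ereg of the EGF family, Igf1, and Tgfb1, Inhba and Gdf15 of the TGF-β family. They were taken by name from the 36870 gene names on the arrays, and every probe of each gene was used, 19 of the 56605 probes. Of the 10 genes, 9 gave a signal well above background on at least 1 array and 8 on all 3. Ereg was the exception on every array.

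The cells had been stimulated for 3 h with LPS, the bacterial wall component that activates TLR4, either alone or after a first exposure to the Lactiplantibacillus plantarum strain LOC1 or LOC3, both isolated from fresh tea leaves. That exposure lasted 12 h by the sample labels and longer by the methods, after which the bacteria were washed off. The 3 conditions, LPS, LOC1 + LPS and LOC3 + LPS, were each measured on 1 one-colour Agilent array. No SD, test or p-value between conditions can therefore be given, and the differences below compare 3 arrays. Unchallenged macrophages enter only through the ratios that the authors deposited. RAW264.7 is a single transformed line, so the values describe that line, and in bulk RNA a change in the share of cells making a transcript cannot be told apart from a change in RNA per cell.

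Growth factors of these families are secreted or shed from the cell surface and act on neighbouring cells through receptor kinases. EGF family ligands bind EGFR and its relatives, VEGF and PlGF bind the VEGF receptors of endothelium, PDGF-BB and IGF-1 drive mesenchymal growth, and activated macrophages are a known source of several of them in wounds. TGF-β family ligands are dimers that signal through paired serine/threonine kinase receptors to SMAD proteins. Inhba encodes the βA chain of activin A, and follistatin is its soluble inhibitor.

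Intensities are those of the scanner software, Feature Extraction, after its background subtraction, and each is given with the error that the software estimated for the spot. The log2 differences were taken after each array was set relative to its 75th percentile, an intensity of 555 on the LPS array, 513 on the LOC1 + LPS array and 516 on the LOC3 + LPS array. A spot counted as well above background where the software marked it so, and the lowest such signal was 16.3, 14.5 and 19.8 in the same order. A dimmer signal was raised to that lowest level, and such a difference is only a bound, given as at least so many fold. A signal over that level but not marked well above background was used as measured. Its difference is an estimate from a dim spot, not a bound. The error of a difference combines the errors of both spots. It was larger than the spread of 269 bright probes printed 10 times on each array. For these, the spread of spots within each of 2 arrays gave an SD of 0.05 for a difference. That SD holds no variation between hybridisations or cultures. For the few dim probes printed as often the SD was 0.28 to 0.35.

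The probes that carry the main differences are shown as designed, 60 bases each on the strand of the transcript. Inhba has a pair of them. The first lies on chromosome 13 at 16118634 to 16118693 of mouse build mm9, and the second, shown by its first 30 bases, lies further 3′ at 16122178 to 16122237. The Gdf15 probe lies on chromosome 8 at 73153293 to 73153352 of mm9 and is shown by its last 30 bases, with the hexamer AATAAA, the usual polyadenylation signal, in capitals. The Vegfa probes, on chromosome 17 at 46159226 to 46159282 and at 46155512 to 46155571 of mm9, are shown because they disagreed, the second by its first 30 bases.
Inhba A_51_P239750: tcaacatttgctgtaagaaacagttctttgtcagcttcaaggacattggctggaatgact
Inhba A_51_P303791: tccaaaatttgaaaagcctttaatgcttaa
Gdf15 A_55_P1960735: actctgctAATAAAggtgagcttggtttct
Vegfa A_55_P2741794: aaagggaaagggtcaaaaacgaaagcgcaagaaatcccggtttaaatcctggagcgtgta
Vegfa A_51_P482552: actggattcgccattttcttatatctgctg

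Macrophages exposed to LOC1 before LPS had more Inhba and Gdf15 transcript than macrophages given LPS alone, while the probes of Vegfa disagreed, its brightest being past 2-fold higher and another lower. With LOC3, Inhba was past 2-fold as well. By the brightest probe no ligand was lower by 2-fold with either strain, though the dimmest Igf1 probe was past 2-fold lower with LOC1. Between LOC1 + LPS and LPS, 3 of the 9 genes that could be compared were higher by 2-fold or more and 0 lower, taking the brightest probe of each. Of all 20013 genes compared, 6.3% were past 2-fold, 2.49% higher and 3.81% lower. Between LOC3 + LPS and LPS, 1 of 9 was higher and 0 lower, against 6.31% of 19315 genes past 2-fold, 3.05% higher and 3.26% lower. The median log2 difference of the 9 genes was -0.21 with LOC1 and -0.11 with LOC3, against 0.00 and 0.03 over all genes compared, and it ranged over the alternatives tried from -0.34 to 0.012 with LOC1 and from -0.17 to 0.11 with LOC3. Both comparisons share the LPS array. In each of them 4 of the 9 genes, Inhba, Vegfa, Gdf15 and Hbegf, lay above 0 and 5 below it. When arrays were scaled by their medians, however, Pdgfb was above 0 with both strains, and Pgf with LOC3. Pgf with LOC3 was also just above 0 under normexp background correction, at 0.0034.

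**Figure D1:**
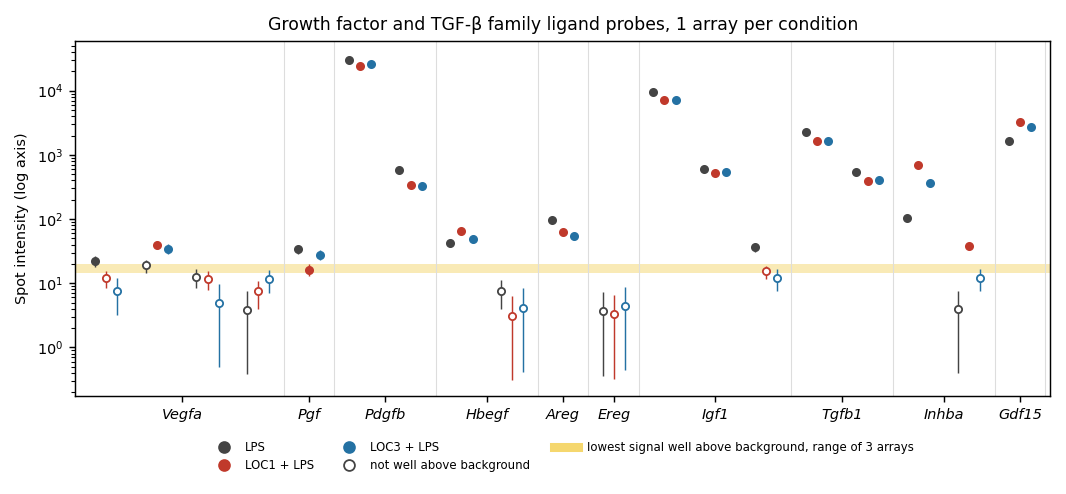
Intensity of every probe of the 10 ligands (log axis) on the LPS, LOC1 + LPS and LOC3 + LPS arrays, 1 array each. Filled points were well above background and open points were not, bars are the scanner software's error (cut off where they would reach 0), and the band spans the lowest signal well above background of the 3 arrays. The brighter Inhba probe stood at 105 with LPS, 685 with LOC1 and 369 with LOC3, while Ereg lay under the band on all 3.

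Of the 10 genes, Inhba, the activin βA chain, differed most from LPS with each strain. The brighter Inhba probe measured 105 ± 11.2 with LPS, 685 ± 68.5 with LOC1 + LPS and 369 ± 37.2 with LOC3 + LPS. The LPS array was the lowest and the LOC1 + LPS array the highest. Its log2 difference from LPS was 2.82 ± 0.21 with LOC1, which is 7.06-fold, and 1.92 ± 0.21 with LOC3, which is 3.79-fold. Between the strains Inhba was 1.86-fold higher with LOC1, a log2 difference of 0.90 ± 0.21, under 2-fold but well over its technical error. The 3′ probe was dim, at 4.02 ± 3.65 with LPS and 12.0 ± 4.47 with LOC3, neither well above background, and at 38.1 ± 4.98 with LOC1. It rose by at least 2.52-fold with LOC1 and gave no value for LOC3 against LPS. With normexp background correction the brighter probe was at 2.19 with LOC1 and 1.40 with LOC3, both still past 2-fold.

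Gdf15, a stress-induced ligand distant from the others in sequence, was measured by 1 probe. It measured 1628 ± 163 with LPS, 3294 ± 329 with LOC1 + LPS and 2705 ± 271 with LOC3 + LPS, so both arrays with a strain lay above the LPS array. The log2 difference was 1.13 ± 0.20 with LOC1, 2.19-fold, and 0.84 ± 0.20 with LOC3, 1.79-fold. The difference between the strains, 0.29 ± 0.20, was under 2 technical errors. When arrays were scaled by their medians, Gdf15 passed 2-fold with LOC3 too, at 1.02.

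Tgfb1, the TGF-β isoform of immune cells, went the other way by a small amount. The brighter of its probes measured 2266 ± 227 with LPS, 1671 ± 167 with LOC1 + LPS and 1648 ± 165 with LOC3 + LPS. Its log2 differences were -0.33 ± 0.20 and -0.36 ± 0.20, and the other probe had -0.35 with each strain. Both probes were therefore lower on both arrays, by less than 2-fold and under 2 technical errors.

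**Figure D2:**
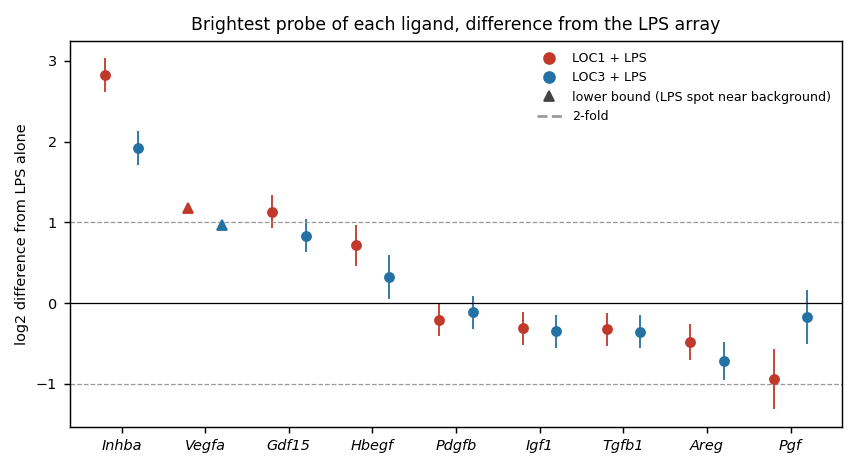
log2 difference from the LPS array for the brightest probe of each ligand with LOC1 + LPS and LOC3 + LPS, 1 array per condition. Bars are the technical error of the difference from both spots, and dashed lines mark 2-fold. Triangles, labelled lower bounds and drawn without a bar, are Vegfa, whose LPS spot was dim but used as measured. Inhba stood furthest above 0 with both strains, at 2.82 and 1.92, and Pgf with LOC1 furthest below, at -0.94.

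Since Inhba and Gdf15 were both higher with both strains, the sequence around their starts was compared. The windows are those of RefSeq on build GRCm38.p6, from 250 bases before to 50 after an annotated start, and 7 of the 10 genes matched a symbol there, with 10 windows. Inhba has 1 window, at chr13:16011601-16011900 on the plus strand. Gdf15 has a pair on the minus strand, at chr8:70632407-70632706 and chr8:70632046-70632345. Capitals mark matches to any of 6 motifs, which were searched on both strands and are named where they are counted.
Inhba: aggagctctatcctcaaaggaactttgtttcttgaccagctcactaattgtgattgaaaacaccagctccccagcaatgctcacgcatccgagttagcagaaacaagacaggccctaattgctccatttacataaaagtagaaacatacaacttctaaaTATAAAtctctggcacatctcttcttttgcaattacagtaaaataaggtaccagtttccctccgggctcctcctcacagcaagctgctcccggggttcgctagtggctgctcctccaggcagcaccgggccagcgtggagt
Gdf15, upstream start: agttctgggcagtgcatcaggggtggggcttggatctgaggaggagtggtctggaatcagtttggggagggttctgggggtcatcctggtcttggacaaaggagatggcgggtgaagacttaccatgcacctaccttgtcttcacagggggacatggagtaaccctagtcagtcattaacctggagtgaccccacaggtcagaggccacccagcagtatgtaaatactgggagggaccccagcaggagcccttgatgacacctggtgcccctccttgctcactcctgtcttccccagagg
Gdf15, downstream start: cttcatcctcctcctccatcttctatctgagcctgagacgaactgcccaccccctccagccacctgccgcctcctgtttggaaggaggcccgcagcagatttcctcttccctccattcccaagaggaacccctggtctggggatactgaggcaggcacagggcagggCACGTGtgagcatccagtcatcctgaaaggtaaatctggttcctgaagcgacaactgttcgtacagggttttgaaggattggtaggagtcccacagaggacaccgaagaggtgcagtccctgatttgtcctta
The Inhba window held 1 TATAAA, beginning 91 bases before the start, a match found in 13.6% of the 32851 windows of all genes. The downstream Gdf15 window held 1 CACGTG, beginning 83 bases before the start, as 7.15% of windows do. None of the 6 motifs was present in both genes. The κB pattern bound by NF-kB, searched as GGG followed by any NNN and then TNCC, found in 17.4% of windows, occurred in the windows of Tgfb1, Igf1 and Pgf. The AP-1 motif, TGANTCA, found in 7.81%, occurred in the window of Igf1. Areg, whose window also held the TATA letters, had the cyclic AMP response element, TGACGTCA, which is found in 1.79%. The amino acid response element, TGATGNAA, found in 3.97% of all windows, was in none of these 10. A match is only a match of letters.

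Of the ligands of EGFR, Hbegf was brighter and Areg dimmer on both arrays with a strain. Hbegf, the heparin-binding ligand, measured 42.4 ± 5.71 with LPS, 64.6 ± 7.31 with LOC1 + LPS and 49.4 ± 6.74 with LOC3 + LPS for the brighter of its probes. The log2 differences were 0.72 ± 0.25 and 0.33 ± 0.28, under 2-fold, and that with LOC3 was near its technical error. The other Hbegf probe stayed near background throughout. Areg, amphiregulin, had 96.7 ± 10.2 with LPS, 63.9 ± 7.07 with LOC1 + LPS and 54.5 ± 6.78 with LOC3 + LPS. Its log2 differences were -0.49 ± 0.22 and -0.72 ± 0.24, a level 1.40-fold and 1.65-fold lower than with LPS. Ereg, epiregulin, had 3.64 with LPS, 3.26 with LOC1 + LPS and 4.42 with LOC3 + LPS, each as small as its own error, and no fold can be given.

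The angiogenic ligands were dim in these cells, and Vegfa gave no single answer. Its brightest probe had 19.0 ± 4.31 with LPS, not well above background, 39.7 ± 5.29 with LOC1 + LPS and 34.6 ± 5.86 with LOC3 + LPS. With LOC1 this is a level 2.26-fold that with LPS, a log2 difference of 1.18 ± 0.38. With LOC3 it was 1.96-fold, at 0.97 ± 0.41. A second probe ran the opposite way, with 22.1 ± 4.16 with LPS and no signal well above background with LOC1 or LOC3. It was lower by at least 1.41-fold and 1.04-fold in that order. The remaining Vegfa probes were not well above background on any array. As the mean of the detected probes Vegfa was at 0.34 with LOC1 on the log2 scale, and under normexp background correction at 0.42, so the 2-fold call with LOC1 rests on 1 dim probe. Pgf, placental growth factor, had 33.8 ± 4.85 with LPS, 16.3 ± 3.54 with LOC1 + LPS and 27.9 ± 5.08 with LOC3 + LPS. Its log2 difference was -0.94 ± 0.38 with LOC1, just under 2-fold, and -0.17 ± 0.33 with LOC3. Under normexp background correction Pgf with LOC1 was at -0.22.

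Pdgfb, the PDGF B chain, was bright and changed little. Its brighter probe had 30543 ± 3054 with LPS, 24508 ± 2451 with LOC1 + LPS and 26268 ± 2627 with LOC3 + LPS, log2 differences of -0.21 ± 0.20 and -0.11 ± 0.20. The dimmer probe, designed on another transcript, was lower by more, at -0.65 ± 0.20 and -0.74 ± 0.21. Igf1, a growth factor made by resting and repair macrophages, had 9681 ± 968 with LPS, 7216 ± 722 with LOC1 + LPS and 7067 ± 707 with LOC3 + LPS for its brightest probe. The log2 differences were -0.31 ± 0.20 and -0.35 ± 0.20, with almost no difference between the strains, 0.04 ± 0.20. A second Igf1 probe had -0.10 and -0.05. The dimmest Igf1 probe had 36.2 ± 5.07 with LPS and was not marked well above background after either strain. The drop was 2.19-fold for LOC1, from the signals as measured, and at least 1.70-fold for LOC3.

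Between LOC1 + LPS and LOC3 + LPS 0 of 9 genes were past 2-fold, against 2.7% of 18874 genes (0.821% higher with LOC1 and 1.88% lower), and the median log2 difference was 0.21, against -0.01 over all genes compared. A count of 0 among 9 genes is near that share of all genes and says nothing particular of the ligands. Inhba had the largest difference of the 9, the 0.90 above. Pgf had the only other difference beyond 0.50, at -0.77 ± 0.41, which was under 2 technical errors.

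The effect of LPS itself can be read only from the authors' deposited log2 ratios to unchallenged macrophages, in which values under 2-fold were left blank. Of the 10 genes, 4 were listed as higher with LPS and 0 as lower, against 9.7% and 8.66% of all gene names. Areg was listed at 2.88. The intensity this implies without LPS, 13.12, was dimmer than the limit of 16.3 on the LPS array, so the rise is given as at least 5.93-fold. Gdf15 was listed at 1.99, which is 3.96-fold, and Pdgfb at 1.42, 2.67-fold. Pgf was listed at 1.05, 2.07-fold, from an implied unchallenged signal of 16.4 that barely reached that limit.

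The listed ratios also place the arrays with a strain against unchallenged cells. Gdf15 reached 3.15 with LOC1 + LPS and 2.86 with LOC3 + LPS, both above its ratio with LPS. Pdgfb had 1.25 and 1.34, still past 2-fold over unchallenged cells. Areg had 2.43 and 2.20, below its ratio with LPS, all against the same dim unchallenged signal. Pgf was blank with both strains. The 3′ probe of Inhba was blank with LPS and listed as higher with both strains, but the unchallenged signal this implies, 3.26, was not above background and only the LOC1 + LPS signal was, so no ratio is given. The brighter Inhba probe, the probes of Tgfb1, those of Hbegf and the brightest of Igf1 are not in the deposited table, so their change with LPS alone is not given here.

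**Figure D3:**
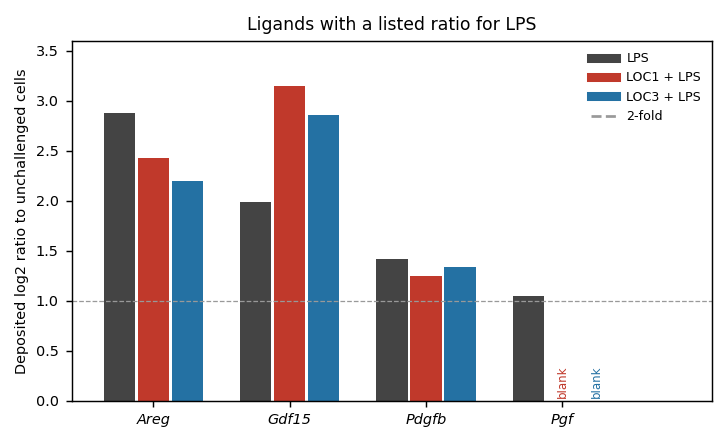
The authors' deposited log2 ratio to unchallenged macrophages for the 4 ligands listed with LPS, by array, with 1 array per condition and no error. The dashed line marks 2-fold, under which values were left blank. The unchallenged signal of Areg was under the background limit, so its bars are not exact folds. Gdf15 was higher with LOC1 + LPS and LOC3 + LPS than with LPS, Areg and Pdgfb lower, and Pgf was blank with both strains.

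Other genes of the same pathways were counted in 9 lists of ligands, receptors, inhibitors and signalling genes, 95 genes in all. With LOC1, 69 could be compared, of which 4 were higher by 2-fold or more, 4 were lower by as much, and 61 were not past 2-fold. With LOC3 it was 5 higher, 4 lower and 59 not past 2-fold of 68. The shares of all genes given above for the same comparisons apply here. The median log2 difference of the lists together was 0.05 with LOC1 and 0.07 with LOC3. Pdgfa, Pdgfc, Igfbp4 and Id1 were the lower genes in each comparison, and Bmp2 and Tgif1 were among the higher ones in each, but the comparisons share the LPS array. Under normexp background correction the calls with LOC1 were Pdgfa, Igfbp4 and Id1, and those with LOC3 were these and Bmp4 and Tgif1.

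Of the other PDGF chains, Pdgfa and Pdgfc were lower after both strains, and Pdgfd was not well above background on any array. Pdgfa, the PDGF A chain, stood at 3853 with LPS, 1206 with LOC1 + LPS and 1509 with LOC3 + LPS, log2 differences of -1.56 and -1.25, with both probes past 2-fold. Pdgfc, a further PDGF chain, had 86.3 with LPS and fell to background after both strains. The drop was at least 5.50-fold for LOC1 and 4.05-fold or more for LOC3. Vegfb, at 0.07 and -0.29, was not past 2-fold. Of the receptors for these ligands, Nrp1, a co-receptor of VEGF, was at 0.31 and 0.33 for its brightest probe. Kdr, at 29.97 with LPS, and Pdgfra, at 23.1, were near background, and Pdgfrb was not well above it on any array.

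In the IGF axis, 1 of the 8 genes compared was past 2-fold with each strain. It was Igfbp4, a binding protein that holds IGF-1 away from its receptor, with 592 with LPS, 118 with LOC1 + LPS and 130.1 with LOC3 + LPS. Its log2 differences were -2.21 and -2.08, with the other probe at -2.41 and -2.33. The receptor Igf1r was at 0.21 and 0.08.

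Among the ligands of the TGF-β family outside the 10, Bmp2 had 109 with LPS, 260.4 with LOC1 + LPS and 241 with LOC3 + LPS, log2 differences of 1.36 and 1.24. Both arrays with a strain were more than 2-fold above the LPS array, a call lost with both strains under normexp background correction. Other calls in this family rested on 1 bright spot beside spots not well above background. Bmp4 had 123 with LOC3 + LPS, 7.76-fold above the LPS signal as measured and at least 8.39-fold above LOC1 + LPS. Mstn had 34.0 with LOC1 + LPS, at least 2.26-fold above LPS. Tgfb2 had 34.5 with LPS, 18.2 with LOC1 + LPS and 46.8 with LOC3 + LPS, and was past 2-fold only between the strains, at -1.36 for LOC1 against LOC3.

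Of the receptors of the TGF-β family, BMP receptors among them, 0 of 10 compared were past 2-fold with either strain by the brightest probe. The share over all genes compared was 6.3% with LOC1 and 6.31% with LOC3. By their lowest probes Acvr1b was past 2-fold lower with LOC1, at -1.02, Acvr2a at -0.06 and -0.09, and Tgfbr1 at -0.13 with LOC1. The values that follow are of the brightest probes. Tgfbr2 was at -0.61 and -0.52, Acvr1b at -0.64 and -0.68 and Acvr2a at 0.84 and 0.61 with LOC1 and LOC3, while Tgfbr1 was at 0.51 and 0.27 and Acvr2b at 0.10 and 0.01. Gfral, the receptor of GDF15 in the brainstem, was not well above background on any array, and neither was Fst, the follistatin gene. Fstl3, a relative of follistatin, had 40.0 with LPS, a log2 difference of -0.30 with LOC1, and with LOC3 a drop of at least 1.88-fold. Of the inhibitory SMADs, Smad6 was at -0.61 and -0.74 and Smad7 at 0.04 and 0.16.

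Of 16 SMAD and target genes, 1 was higher and 1 lower by 2-fold with each strain by the brightest probe. Id1, a target of BMP signalling, had 7879 with LPS, 1353 with LOC1 + LPS and 1923 with LOC3 + LPS, log2 differences of -2.43 and -1.93. Its relatives Id2, at -0.03 and -0.10, and Id3, at 0.04 and 0.22, were not past 2-fold. Tgif1, a repressor that acts on SMAD complexes, had 9495, 17799 and 18877 in the same order, log2 differences of 1.02 and 1.10, while its lowest probe was at 0.25 and 0.26. Smad3 was at -0.77 and -0.62 for its brightest probe, and its lowest probe was at -1.50 with LOC3. As the mean of the detected probes Smad3 was past 2-fold with LOC3, and Tgif1 with neither strain. Some genes that act on latent TGF-β were called from dim spots. Itgb8 rose by at least 2.37-fold with LOC1, and Thbs1 by at least 2.26-fold with LOC3. Ltbp3 was 2.25-fold lower with LOC1 than with LOC3.

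The EGF receptor genes were mostly not past 2-fold. Erbb3 was at 0.09 and 0.02 and Erbb4 at -0.13 and 0.07. Erbb2 was well above background with both strains but not with LPS, and the bounds on its rise were 1.30-fold and 1.74-fold. Egfr was well above background with LOC3 + LPS alone, at 42.1, at least 2.77-fold above LPS and 2.54-fold above the LOC1 + LPS signal as measured. Adam17, the sheddase that releases HB-EGF and amphiregulin, was at -0.53 and -0.47. Flt1, a receptor of VEGF and PlGF, was well above background with LOC1 + LPS only, with an intensity of 18.0.

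**Figure D4:**
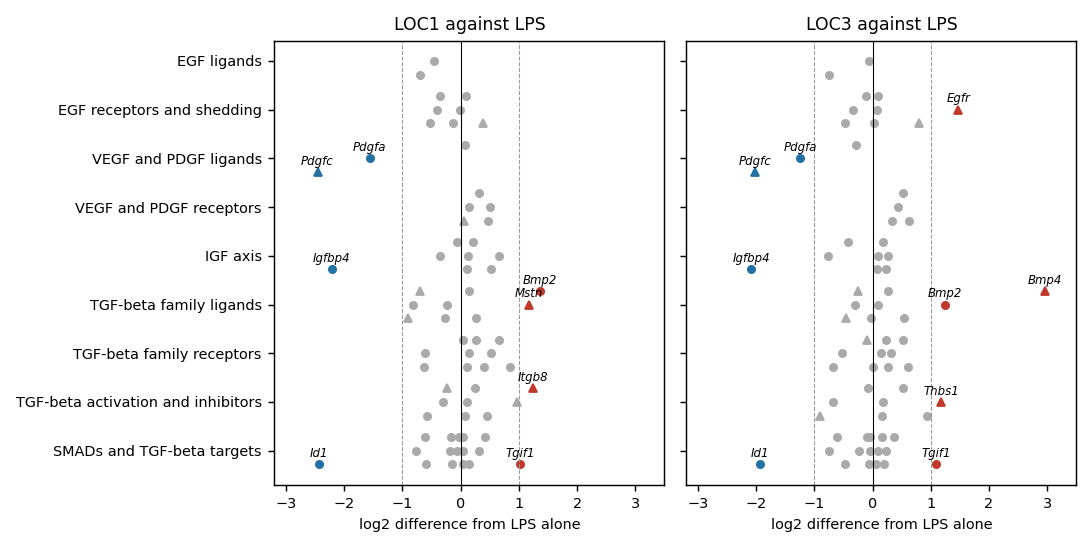
log2 difference from the LPS array for the genes of 9 pathway lists that could be compared, with LOC1 on the left and LOC3 on the right, 1 array per condition. Triangles are differences with a spot not well above background, dashed lines mark 2-fold and genes past it are named. Pdgfa, Pdgfc, Igfbp4 and Id1 lay below the line in both panels, and Bmp2 and Tgif1 above it.

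With LPS against unchallenged macrophages, 16 of the 95 pathway genes were listed as higher and 16 as lower for at least 1 probe, beside 9.7% and 8.66% of all 36870 gene names. Rhbdf2, which carries ADAM17 to the cell surface, was listed at 3.18. The listed genes that were lower included Tgfb3 at -3.03, Smad6 at -2.49, Ski at -1.98, Tgfbr1 at -1.81, Smad7 at -1.34 and Tgfbr2 at -1.33.

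The 8 macrophage markers were well above background on all 3 arrays, with intensities from 7886 to 244528. Their summed intensity was 514982 with LPS, 395743 with LOC1 + LPS and 430599 with LOC3 + LPS, of which Lyz2 was the largest part. The markers did not move together. With LOC1 and LOC3 in that order, Fcgr3 was at -1.65 and -1.42, past 2-fold, and Csf1r at -0.89 and -0.70, while Adgre1 was at 0.57 and 0.38, Cd68 at 0.30 and 0.27 and Cd14 at 0.06 and 0.04. Markers of fibroblasts, epithelium and endothelium were near background, with none over an intensity of 81.8. Dcn, a fibroblast marker and the brightest of these, was lower by 2-fold with LOC1, at -1.10, and at -0.82 with LOC3. The fibroblast markers Col1a1, at -0.29 and -0.38, and Col1a2, at -0.81 and -0.55, and the endothelial marker Pecam1, at -0.45 and -0.60, were also below 0. Others lay above 0, with the fibroblast marker Pdgfra at 0.15 and 0.52 and the endothelial markers Cdh5 at 0.94 and 0.87 and Kdr at 0.47 and 0.62. Their summed intensities were 214, 143 and 150.4 for 5 fibroblast markers, 36.1, 20.4 and 22.3 for 5 epithelial ones and 147, 164 and 164 for 5 endothelial ones, in the order LPS, LOC1 + LPS and LOC3 + LPS. Krt8, Krt18, Krt19 and Cdh1 were not well above background on any array. Of 4 T cell markers Cd3e reached 396, 416 and 451 and Cd3d 66.4, 60.3 and 42.9, while Cd2 and Cd8a were not well above background. Cd3e was at 0.18 and 0.29 and Cd3d at -0.03 and -0.53. The part of these shifts in the differences of the ligands was not tested.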

How the data were processed

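RNA from RAW264.7 macrophages was hybridised to Agilent mouse arrays, 1 array per condition. Spot intensity was deposited by the authors after background subtraction in Feature Extraction, version 12.0.3.1 in the file headers, without normalization between arrays. The authors also deposited log2 ratios to unchallenged macrophages made with GeneSpring, with values under 2-fold left blank. No spot was saturated, and spots marked as outliers, 118 to 135 per array, were left out.

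Each array's log2 intensity was set relative to its 75th percentile, and the brightest probe stood for its gene. Genes were compared where at least 1 of 2 arrays was well above background, with a threshold of 2-fold and no test, since the t-test of the methods needs replicates. The small number of arrays limits the precision. Python 3.11.15, numpy 2.4.6, pandas 2.3.3, matplotlib 3.10.9 and limma 3.58.1 in R 4.3.3 (normexp, offset 50) were used, and the procedure was tested on simulated data. The members and lists were chosen with earlier results of these data known. Named beside the members are pathway genes past 2-fold in any comparison and the main receptors and inhibitors, with a few others of the lists chosen after their values were seen. The alternatives tried were other scalings, background correction, filters, probe summaries, thresholds, outlier spots kept and the deposited ratios, and one, a difference also over 2 technical errors, was chosen after seeing the data.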

Additional observations from a re-analysis of the deposited data

How the results depend on the processing

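Median scaling raised the median of all genes by 0.22 with LOC1 and by 0.19 with LOC3. Under it the median of the ligands was 0.012 with LOC1, and 3 ligands, Inhba, Gdf15 and Vegfa, were past 2-fold with LOC3, against 2 under quantile normalization. Without filter and floor the median with LOC3 was 0.11. In the deposited ratios, which hold 3 of the ligands in these comparisons, 1 was past 2-fold with LOC1 and 0 with LOC3, and at 3-fold 1 was with LOC1 and 2 were listed with LPS. Inhba stayed past 2-fold with both strains under all 8 alternatives that gave a value. The 2-fold call of Gdf15 with LOC1 held at that threshold under all 9, and that of Vegfa with LOC1 under 5 of 7. Inhba, Gdf15 and Vegfa kept their sign against LPS under each of these.

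Counts of pathway genes with LOC1 and LOC3 fell from 8 and 9 to 3 and 5 under normexp correction, to 5 and 5 where both spots had to be well above background, to 1 and 3 in the deposited ratios and to 3 and 4 at 3-fold. Between the strains the 4 genes became 1 under normexp, 1 with both spots well above background, 0 in the deposited ratios and 1 at 3-fold. Without filter and floor the counts were 17 with LOC1 and 11 between the strains. At 3-fold 16 pathway genes were listed with LPS. No paired analysis was possible because each group holds 1 array. Differences of spots near background are limited by their signal over background.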
